A study of Mus musculus with 9 samples.

Results

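Base excision repair and nucleotide excision repair were followed through 45 mouse genes in laser-captured neural crest cells and their derivatives. The genes were taken from a fixed list of pathway members, and every probe set (a group of array probes that reads 1 transcript) annotated to exactly 1 of these symbols was used. Of the 45 genes, 42 had such a probe set, 93 probe sets in all, and 39 genes with 76 probe sets carried enough signal to be tested, out of 13747 genes tested on the whole array. Lig1, Fen1, Rpa1, Rpa2 and Rpa3, which also work in DNA replication, were kept apart from the other 40 genes. The samples were cells captured at embryonic day 8.5 (E8.5) during neural tube closure, at embryonic day 13.5 (E13.5) in dorsal root ganglia, and at postnatal day 90 (P90, 3 months) in adult adrenal medulla, with 3 Affymetrix arrays of biological replicates per stage. No treatment or engineered allele is named, and the strain, the sex and the number of animals behind a capture are not given in the sources used here. The p-values therefore measure the spread between these samples. Stage and tissue change together, so their effects cannot be told apart. The series was designed to examine DNA repair genes during development.

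Base excision repair removes small lesions such as uracil, oxidised guanine and alkylated bases: a glycosylase cuts out the base, an endonuclease opens the abasic site, and a polymerase and a ligase fill and seal the gap. Nucleotide excision repair removes bulky, helix-distorting lesions such as ultraviolet photoproducts, which are sensed across the genome or by a stalled RNA polymerase, opened by the TFIIH complex and cut out by a pair of nucleases. The neural crest is a population of dividing progenitors that migrates away from the dorsal neural tube and later forms sensory neurons, glia and the chromaffin cells of the adrenal medulla, most of which no longer divide.

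Arrays of a stage correlated at r = 0.875 to 0.986 over log2 signals and arrays of different stages at 0.813 to 0.914. Summed signals of 7 of 8 cycling-cell markers ran from 17146 to 18889 at E8.5, from 2652 to 4329 at E13.5 and from 698 to 1054 at P90. All 8 neural crest markers summed to 3751 to 5399, 1437 to 2140 and 766 to 881, and 6 of 8 chromaffin markers to 260 to 303, 1403 to 3894 and 12207 to 23646 in the same order. Of the 8 neural crest markers, 5 fell at E13.5 and 7 at P90, both against E8.5. Sox10 lay higher on all E13.5 arrays than at E8.5 without passing (0.71, adjusted p = 0.197), and Snai2 and Tfap2a were not called there. For sensory neurons, 4 of 8 markers had no empty cell and summed to 252 to 409.6, 3812 to 6833 and 466 to 3110. Of these, Isl1 (12.5 to 149, 3153 to 5244 and 88.9 to 1876) and Ntrk2 rose at E13.5 against E8.5, whereas Ntrk3 and Prph did not pass (-0.09, adjusted p = 0.871, and 0.56, adjusted p = 0.189). Pou4f1, Nefl and Tubb3 were empty on all 3 E13.5 arrays. Markers of other cells also moved. In the same order of stages, 2 of 5 Schwann and satellite glia markers summed to 56.8 to 132, 800.2 to 4041 and 73.5 to 295, and 3 of 6 mesenchyme markers to 889 to 1669, 3340.1 to 12038 and 841 to 4373. The glia marker Fabp7 and the mesenchyme markers Col1a1 and Col3a1 were empty on all 3 E13.5 arrays. Within the mesenchyme sum, Col1a2 and Dcn rose at E13.5 against E8.5, whereas Pdgfra did not pass (0.37, adjusted p = 0.809). The 2 red-cell markers with no empty cell summed to 497 to 3502, 36.5 to 388 and 18.8 to 31.1, and Hbb-y, an embryonic globin with 1 empty array, fell at P90 against E13.5 (-8.16). Before that, Hbb-y lay higher on its E13.5 arrays than at E8.5 without passing (1.26, adjusted p = 0.19). Alas2, also with 1 empty array, rose against E8.5 at E13.5 (2.27, adjusted p = 0.00939) and at P90 (2.63, adjusted p = 0.00167). Hba-x was not called. The sums were 127 to 525, 527 to 1507 and 417 to 3118 for 4 of 6 endothelial markers. On the P90 arrays that sum was 3118, 417 and 423. Of the 5 endothelial markers tested, Cdh5 rose at E13.5 against E8.5 (2.21, adjusted p = 0.0124). At P90, 0 of the 5 were called against E8.5 or E13.5, where 23.3% and 9.48% of all genes were called. For 3 of 6 macrophage markers the sums were 868 to 1472, 1717 to 1981 and 2228 to 3655, and for 4 of 5 epithelial markers 903 to 2725, 81.5 to 117 and 85.0 to 198. Cdh1, the epithelial marker outside this sum for its 1 empty array, did not pass at E13.5 against E8.5 (0.81, adjusted p = 0.611). It fell at P90 against E8.5 (-3.22, adjusted p = 0.0129). Of the 8 adrenal cortex markers, Star, Cyp11b1, Cyp21a1 and Hsd3b1 were empty on all 3 P90 arrays. Of the other 4, Nr5a1, with 1 empty array, read 29.2 to 55.2 at E8.5, 177 to 241 at E13.5 and 318 to 445 at P90, and it rose at P90 against E8.5 (2.88 ± 0.36, adjusted p = 0.000283) and at E13.5 (adjusted p = 0.00186). Mc2r lay higher on its P90 arrays than at E8.5 without passing (0.59, adjusted p = 0.201), and Cyp11a1 and Cyp11b2 were not called. RNA integrity was read from Actb as the log2 signal of its 3' control probe set minus that of its 5' one, which was 4.70, 2.04 and 2.38 on the E8.5 arrays, 0.85, 6.69 and 2.85 at E13.5 and 1.36, 4.03 and 3.47 at P90. The part of the marker shifts in the changes below was not tested. Dropping the array with the widest Actb gap from every stage, which also leaves fewer arrays, left Rpa2 as the 1 member called at E13.5 against E8.5, out of 6. At P90 against E8.5 it ended the calls of Xrcc1, Neil3, Rad23b and Cdk7, leaving 10 of 14, and at P90 against E13.5 that of Parp1, with Rpa3 gained. In bulk samples, fewer cells of a type and less RNA per cell cannot be told apart.

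The change from E8.5 was below 0 for 27 of the 39 tested genes at E13.5 and for 30 at P90, beside 6671 and 6842 of all 13747 genes tested. At P90 against E8.5, 13 of the 39 tested genes fell (33.3%), against 12.5% of all genes tested, and 1 gene, Neil1, rose (2.56% against 10.9%). At E13.5 against E8.5, 6 fell (15.4% against 7.22%) and 0 rose (1 at an unadjusted p under 0.05), where 9.27% of all genes rose. These 6, Lig1, Rpa1, Rpa2, Xrcc1, Parp2 and Rad23b, all fell at P90 against E8.5 too, but both comparisons share the E8.5 arrays. Between E13.5 and P90, 1 gene fell, Parp1 (2.56% against 5.94%), and 0 rose (0 at an unadjusted p under 0.05; 3.54% of all genes rose). In either direction, 16.5% of all genes were called from E8.5 to E13.5, 9.48% from E13.5 to P90 and 23.3% from E8.5 to P90. Calls are from limma on log2(signal + 16) at a Benjamini-Hochberg adjusted p under 0.05 over all genes tested, and changes are given on that scale with their standard error. Adding 16 understates the change of dim genes.

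The median change over the 39 genes was -0.42 at E13.5 against E8.5, -0.16 at P90 against E13.5 and -0.65 at P90 against E8.5, beside 0.023, -0.05 and 0.0045 over all genes tested. Single arrays moved these medians: without E13.5 replicate 2 they were -0.18 at E13.5 against E8.5 and -0.31 at P90 against E13.5. The latter was -0.31 without P90 replicate 1, -0.11 without E13.5 replicate 1 and -0.09 without P90 replicate 3. Over all 9 removals the ranges were -0.50 to -0.18, -0.31 to -0.09 and, at P90 against E8.5, -0.73 to -0.48. The 3 arrays of the later stage all lay below the 3 of the earlier for 13 genes (33.3%, against 17.1% of all genes) at E13.5 against E8.5, for 3 (7.69% against 13.9%) at P90 against E13.5 and for 19 (48.7% against 23.6%) at P90 against E8.5. The later arrays all lay above the earlier for 1, 0 and 1 members in the same order, against 18.6%, 9.58% and 20.3% of all genes. The F-test, which asks for a difference between any stages, called 12 of the 39 genes, against 26.3% of all genes. In all, 14 genes were called in at least 1 comparison and 25 in none. Without 1 array, the count of called members ran from 2 (without E8.5 replicate 1 or 3) to 9 at E13.5 against E8.5, from 0 to 4 at P90 against E13.5 and from 10 to 16 at P90 against E8.5.

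Per array, the median log2(signal + 16) of the tested members was 9.17, 8.88 and 8.94 at E8.5, 8.57, 7.53 and 7.79 at E13.5 and 7.75, 7.70 and 7.41 at P90. The E8.5 arrays were thus above all others, and E13.5 replicate 1 stood closest to them. The same median over all genes tested was 7.53, 7.47 and 7.58 at E8.5, 7.84, 7.33 and 7.84 at E13.5 and 7.62, 7.70 and 7.42 at P90. E13.5 replicate 2, the array with the widest Actb gap, held the lowest of the 3 E13.5 values for 27 of the 39 members (69.2%), beside 61.5% of all genes with no empty value there. P90 replicate 3 held the lowest P90 value for 25 of 39 (64.1%), beside 58.0% of all genes.

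**Figure D1:**
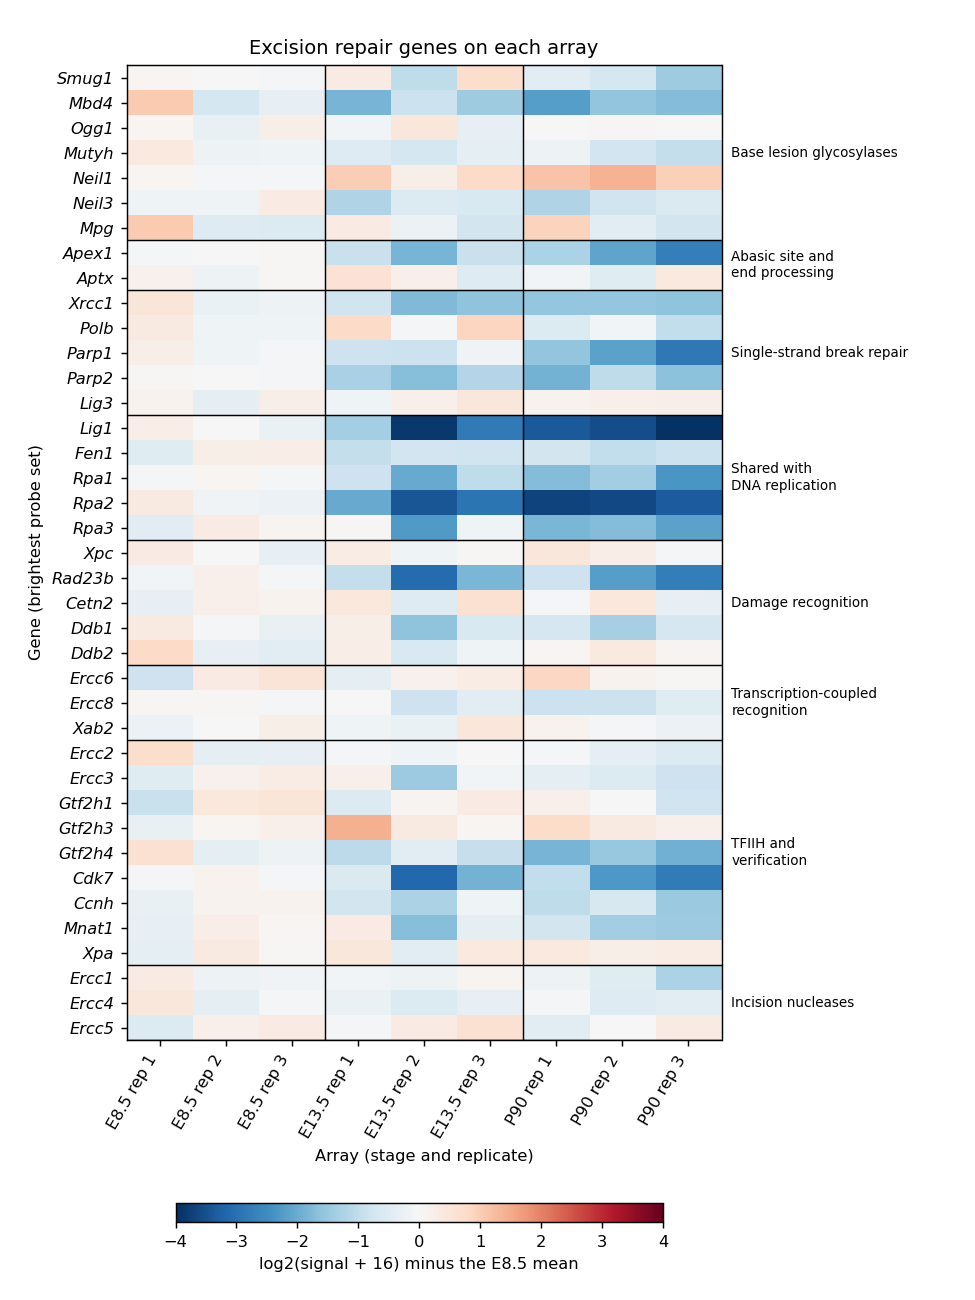
Each row is 1 tested gene, grouped by role, and each column 1 array. Colour gives log2(signal + 16) minus the gene's mean over the 3 E8.5 arrays, with blue lower and red higher. Blue is densest in Lig1 and Rpa2 at both later stages, while the rows of the transcription-coupled and incision genes stay paler.

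**Figure D2:**
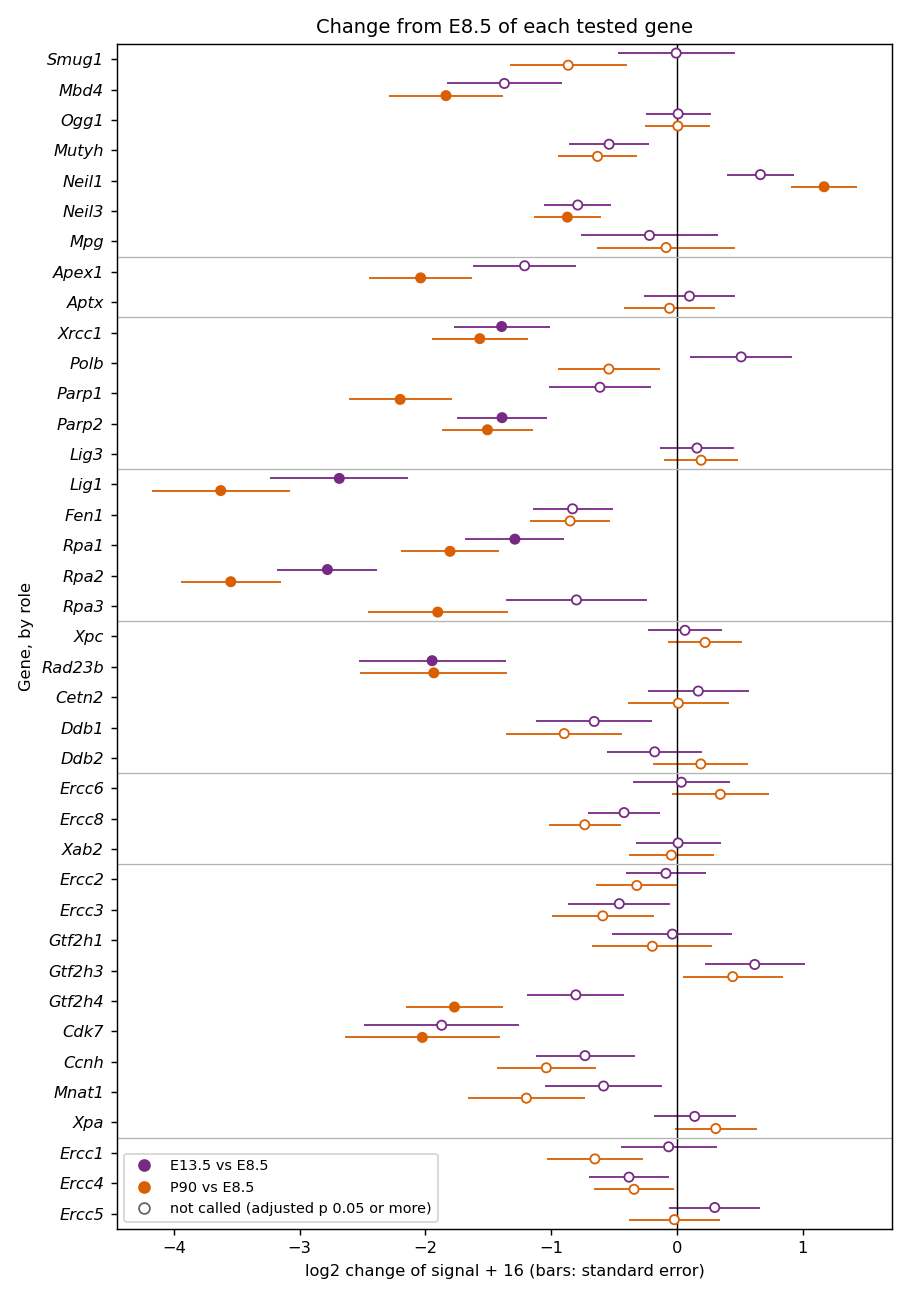
Log2 change from E8.5 of each tested gene at E13.5 and at P90, with standard errors; filled points passed an adjusted p under 0.05. The filled points are on the negative side for 13 genes at P90 and 6 at E13.5, and Neil1 at P90 is the 1 filled point on the positive side.

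Of the 5 genes shared with DNA replication, Lig1, Rpa1 and Rpa2 fell at E13.5 and Lig1, Rpa1, Rpa2 and Rpa3 at P90, both against E8.5, with 0 called between E13.5 and P90 (0 at an unadjusted p under 0.05). The shares called lower were 60% at E13.5 and 80% at P90 against E8.5, beside 7.22% and 12.5% of all genes. The median change of these 5 genes was -1.29 at E13.5 and -1.90 at P90 against E8.5, and -0.77 at P90 against E13.5. Among the other 34 tested genes, 3 fell at E13.5 (8.82%, close to the 7.22% of all genes) and 9 at P90 against E8.5 (26.5% against 12.5%), with medians of -0.20 and -0.57. These differences in counts were not tested. Of the 7 tested cycling-cell markers, 6 fell from E8.5 to E13.5, 5 from E13.5 to P90 and 6 from E8.5 to P90; their part in these changes was not tested.

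Lig1, the ligase that seals nicks between newly copied fragments and after long-patch repair, had signals of 1871, 1568 and 1315 on the E8.5 arrays, 606, 92.3 and 206 at E13.5 and 139, 118 and 85.3 at P90. The E8.5 arrays were all above the rest, and E13.5 replicate 1 was higher than its 2 companions. Lig1 fell by the largest amount of any member at P90 against E8.5 (-3.63 ± 0.55, adjusted p = 0.000701; 12.4-fold), and it fell at E13.5 (-2.69 ± 0.55, adjusted p = 0.00597), a call lost when the array with the widest Actb gap was dropped from every stage (adjusted p = 0.0646).

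Replication protein A is the 3-subunit complex that covers single-stranded DNA in replication and in the opened repair bubble. Rpa2, its middle subunit, had signals of 1255, 873 and 820.2 on the E8.5 arrays, 229, 75.5 and 114 at E13.5 and 59.9, 63.8 and 81.4 at P90, with no overlap between E8.5 and either later stage. It fell at E13.5 (-2.78 ± 0.40, adjusted p = 0.000743) and at P90 (-3.55 ± 0.40, adjusted p = 8.57e-05; 11.7-fold), and kept both calls in all 23 alternative settings. Rpa1, the large subunit that makes most of the DNA contacts, had signals of 3851, 4186 and 3784 on the E8.5 arrays, 2204, 965 and 1928 at E13.5 and 1183, 1502 and 779 at P90. Here too the E8.5 arrays were the highest of the 9, and its means were 3940.4 ± 215, 1699 ± 650.4 and 1155 ± 362 (SD, n = 3). It fell at P90 (-1.80 ± 0.39, adjusted p = 0.00643) and at E13.5 (-1.29 ± 0.39, adjusted p = 0.0445), the latter a call lost on removing any E8.5 array, replicate 2 or 3 of E13.5, or replicate 2 of P90 (adjusted p 0.0622 to 0.153). That call was also lost with the replicate number as a block (adjusted p = 0.0712), with no filter on low signals (0.0612) and with every probe set tested by itself (0.0512). Rpa3, the small subunit, had signals of 532, 914 and 788 on the E8.5 arrays, 756, 137 and 642 at E13.5 and 192, 209 and 152 at P90. Its E13.5 arrays spread widely and overlapped E8.5, while the P90 arrays were all lower than E8.5. Rpa3 fell at P90 against E8.5 (-1.90 ± 0.56, adjusted p = 0.0288), a call lost on removing replicate 2 or 3 of E8.5 or replicate 2 or 3 of P90 (adjusted p 0.0655 to 0.108). At E13.5 against E8.5 its change was -0.80 ± 0.56, adjusted p = 0.398. Without E13.5 replicate 2, where it read 137, Rpa3 was lower at P90 against E13.5 (-1.84, adjusted p = 0.00841).

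The proximal promoters of the 3 Rpa genes are shown because all 3 subunits fell by P90 and each promoter holds CCAAT, the letters read by the factor NF-Y, printed in capitals here (as ATTGG where it lies on the other strand). The sequences are the 250 bases before an annotated start of each gene from RefSeq on build GRCm38.p6, 5′ to 3′ along each gene: chr11:75348384-75348633, minus strand for Rpa1, chr4:132768110-132768359, plus strand for Rpa2 and chr6:8259142-8259391, minus strand for Rpa3.
Rpa1: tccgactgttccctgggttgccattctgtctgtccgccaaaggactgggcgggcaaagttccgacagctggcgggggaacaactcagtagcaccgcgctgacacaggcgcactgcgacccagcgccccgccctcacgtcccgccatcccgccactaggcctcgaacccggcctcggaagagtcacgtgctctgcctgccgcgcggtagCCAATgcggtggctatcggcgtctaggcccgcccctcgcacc
Rpa2: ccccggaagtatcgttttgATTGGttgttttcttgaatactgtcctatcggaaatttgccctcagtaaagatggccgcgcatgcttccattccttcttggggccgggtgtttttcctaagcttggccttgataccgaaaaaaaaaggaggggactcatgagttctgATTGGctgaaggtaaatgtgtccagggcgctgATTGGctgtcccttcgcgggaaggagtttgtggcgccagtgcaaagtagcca
Rpa3: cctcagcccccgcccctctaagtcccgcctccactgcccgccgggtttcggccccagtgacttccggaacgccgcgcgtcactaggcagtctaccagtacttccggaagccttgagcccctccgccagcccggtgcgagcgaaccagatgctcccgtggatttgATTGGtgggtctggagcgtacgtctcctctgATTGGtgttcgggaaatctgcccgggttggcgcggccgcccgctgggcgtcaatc
Rpa1 holds 1 match, 42 bases before the start used. The Rpa1 gene as annotated reaches to 75348454, so part of its printed stretch, including this match, lies inside the gene span. Rpa2 holds 3, at 231, 84 and 52 bases, all on the other strand. Rpa3 holds 2, at 86 and 55 bases, also on the other strand. CCAAT is common: 23 of 43 promoters of 38 members matched it on either strand (53.5%), as did 33.8% of all 32851 promoters of the table. Among the 8 promoters of the 5 shared genes 3 matched (37.5%), near the share of all promoters, and the 3 Lig1 and 2 Fen1 promoters had none. The 4 strings TTTGGCGC, TTTCCCGC, TTTGCCGC and TTTCGCGC, forms of the E2F site, were in 0 of the 8 promoters of the 5 shared genes and in 1 member promoter, that of Nthl1, against 1.86% of all. TTTGAA, the core of the CHR element, was in 1 of the 8, a Fen1 promoter, and in 3 of 43, against 15.99% of all. A match is a string of letters, not a measured binding site. Only these exact strings were searched, so 0 matches do not show that a site is absent.

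Fen1, the nuclease that trims flaps in replication and long-patch repair, was read differently by its 2 probe sets. The brighter one, 1436454_x_at, gave 2399.6, 3982 and 4081 on the E8.5 arrays, 1761, 1987 and 1961 at E13.5 and 2046, 1717 and 1876 at P90. The E8.5 arrays were the highest, yet its change did not pass at E13.5 (-0.83 ± 0.32, adjusted p = 0.105) or P90 (-0.85 ± 0.32, adjusted p = 0.0772; 95% interval -1.55 to -0.15) against E8.5. It passed at P90 without E8.5 replicate 1 (adjusted p = 0.0493). The dimmer one, 1421731_a_at, gave 138, 407 and 378 on the E8.5 arrays, 39.9, 9.62 and 16.1 at E13.5 and 18.1, 9.95 and 16.7 at P90, with every later array far below E8.5. In the fit of all probe sets it fell at E13.5 (-3.04 ± 0.41, adjusted p = 0.000817) and at P90 (-3.27 ± 0.41, adjusted p = 0.00032). With the mean of both probe sets Fen1 was called lower at E13.5 (-1.94, adjusted p = 0.00407) and at P90 (-2.06, adjusted p = 0.00209).

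**Figure D3:**
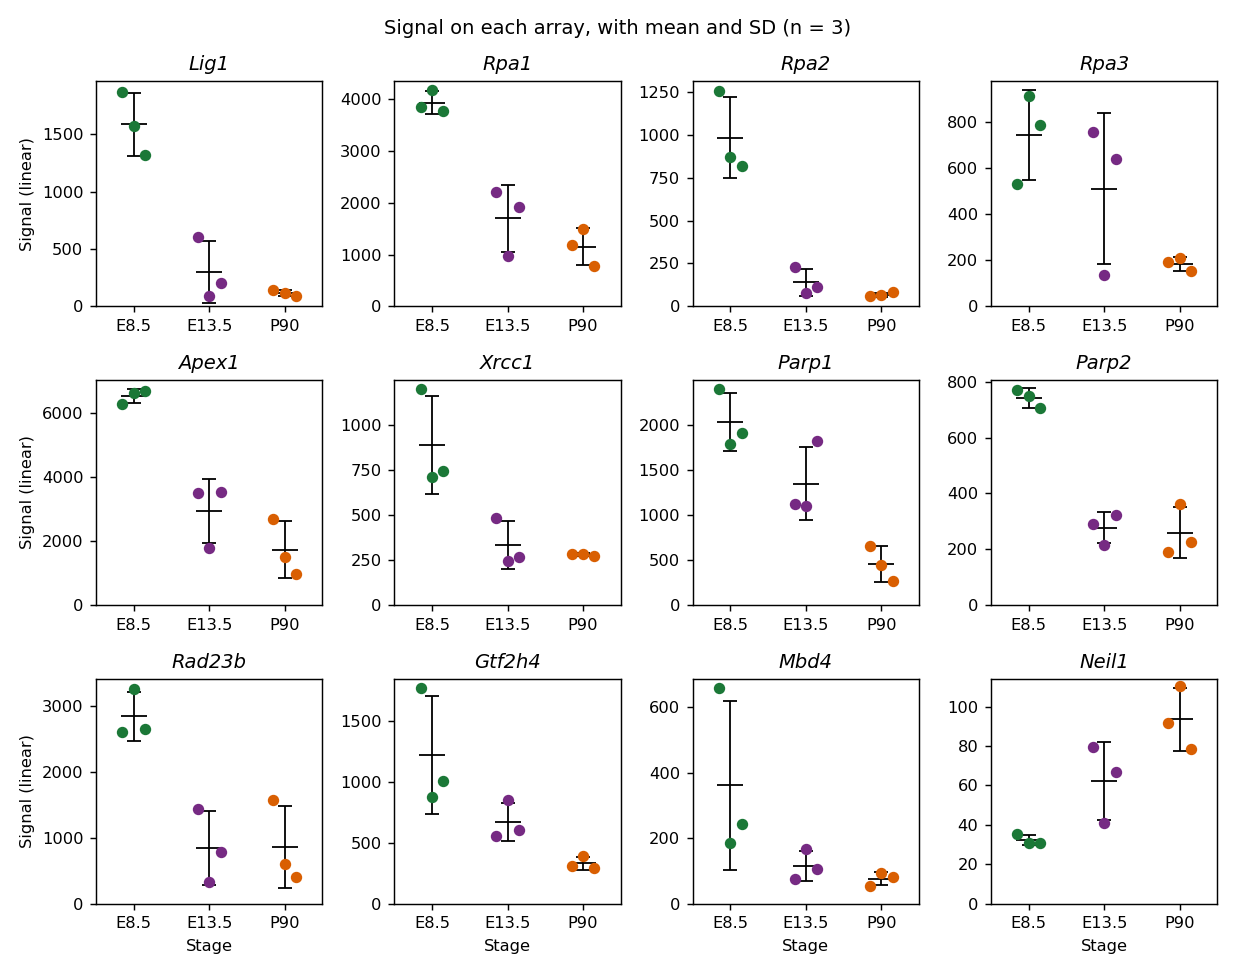
Signal (linear) of 12 genes on each array, by stage; points are arrays, and bars the mean and SD of 3. By its mean Neil1 is highest at P90, with arrays from 78.6 to 110.1, and the other 11 are highest at E8.5.

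Of the 11 base lesion glycosylases, 7 were tested. Mbd4 and Neil3 fell and Neil1 rose at P90 against E8.5, and 0 were called in the other 2 comparisons (at an unadjusted p under 0.05, 1 rose and 2 fell at E13.5 against E8.5, and 0 at P90 against E13.5). The P90 shares were 28.6% lower and 14.3% higher, against 12.5% and 10.9% of all genes. In the other 2 comparisons, 16.5% and 9.48% of all genes were called. Neil1, which removes oxidised pyrimidines, had signals of 35.4, 30.8 and 31.0 on the E8.5 arrays, 79.4, 40.8 and 66.9 at E13.5 and 91.7, 110.1 and 78.6 at P90. All E8.5 arrays were below all later ones, and E13.5 overlapped P90. Neil1 rose at P90 (1.17 ± 0.26, adjusted p = 0.00778; 2.25-fold), a call kept in all 23 alternatives. At E13.5 its change was 0.66 ± 0.26, adjusted p = 0.118, which passed without E13.5 replicate 2 (0.036). Its signals are modest, so the added 16 weighs on the fold. Neil3, a glycosylase of the same family that acts on single-stranded DNA, had signals of 47.0, 47.4 and 72.5 on the E8.5 arrays, 14.9, 32.2 and 30.0 at E13.5 and 14.4, 24.3 and 31.0 at P90. All later arrays lay below E8.5, and it fell at P90 (-0.87 ± 0.27, adjusted p = 0.0358), a call lost on removing any E8.5 array, replicate 3 of E13.5 or replicate 1 or 2 of P90 (adjusted p 0.0523 to 0.131), with 1 added to the signals in place of 16 (0.0507) or without a variance trend (0.0652). At E13.5 its change was -0.79 ± 0.27, adjusted p = 0.0686, which passed without P90 replicate 1 (0.0496). Mbd4, which removes thymine or uracil opposite guanine at methylated CpG sites, had signals of 657, 184 and 245 on the E8.5 arrays, 74.9, 166 and 106 at E13.5 and 55.5, 93.0 and 82.7 at P90. E8.5 replicate 1 was far above the other 2, and all E8.5 arrays were above the later ones. Mbd4 fell at P90 (-1.84 ± 0.46, adjusted p = 0.0129), and its other tested probe set, 1457708_at, fell as well (-1.41 ± 0.39, adjusted p = 0.0269; lost on removing replicate 2 or 3 of E8.5 or replicate 1 or 3 of P90, adjusted p 0.0665 to 0.113). At E13.5 its change was -1.37 ± 0.46, adjusted p = 0.0629, and it passed without E8.5 replicate 2 or E13.5 replicate 2 (0.0484 and 0.0397).

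Smug1, a uracil glycosylase that was not called, had signals of 379, 365 and 338 on the E8.5 arrays, 453, 168 and 592 at E13.5 and 261, 214 and 123 at P90. The P90 arrays lay below E8.5 but overlapped E13.5, and its change at P90 against E8.5 was -0.87 ± 0.46, adjusted p = 0.21. Against E13.5 the P90 change was -0.86 ± 0.46, adjusted p = 0.334, and it passed without E13.5 replicate 2 (-1.37, adjusted p = 0.0392). Ogg1, the oxidised-guanine glycosylase, had a largest change of 0.0090 in size over the comparisons, with a 95% interval of -0.56 to 0.57 at P90 against E8.5. Mpg, which removes alkylated purines, and Mutyh, which removes adenine opposite oxidised guanine, were not called, with largest changes of 0.22 and 0.63 in size on their brightest probe sets. The 3 Mpg probe sets ran from -0.52 to 0.50 at E13.5 and from -0.53 to 0.13 at P90, both against E8.5, with 0 called. Ung, the main uracil glycosylase, could not be tested. Its probe set was empty on all 3 E8.5 arrays and read 521, 151 and 157 at E13.5 and 132, 36.8 and 30.7 at P90. Nthl1 had 1 dim probe set, below the filter. The 3 Tdg probe sets each carried several symbols, and no probe set carried Neil2 in the annotation used.

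Apex1, the endonuclease that opens abasic sites and the core of base excision repair, had signals of 6289.5, 6614 and 6693 on the E8.5 arrays, 3493, 1793 and 3542 at E13.5 and 2705, 1509 and 959 at P90. The 3 E8.5 arrays agreed closely, at 6532 ± 214 (SD, n = 3), and none of the later arrays reached them. Apex1 fell at P90 (-2.04 ± 0.41, adjusted p = 0.00419; 4.11-fold) in all 23 alternatives, and its 3 probe sets all fell, from -2.27 to -2.04. At E13.5 the brightest probe set gave -1.21 ± 0.41, adjusted p = 0.0687, and passed without P90 replicate 1 or 3 (0.0231 and 0.0445), while 1416135_at fell (-1.72 ± 0.49, adjusted p = 0.0378), a call lost on removing any E8.5 array, replicate 2 or 3 of E13.5 or replicate 2 of P90 (adjusted p 0.0592 to 0.117). Aptx, which clears the ends left by a failed ligation, had signals of 149, 111 and 137 on the E8.5 arrays, 206, 155 and 88.1 at E13.5 and 122, 89.9 and 179 at P90. Its stages overlapped, and its change at P90 against E8.5 was -0.059 ± 0.36, adjusted p = 0.932 (95% interval -0.85 to 0.73). Both probe sets of Apex2, a second abasic endonuclease, were below the filter.

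In single-strand break repair, Xrcc1, Parp1 and Parp2 fell at P90 against E8.5, Xrcc1 and Parp2 also at E13.5, and Polb and Lig3 were not called. These are 60% of the 5 at P90 and 40% at E13.5, against 12.5% and 7.22% of all genes. Xrcc1, the scaffold that gathers the polymerase and ligase at a nick, had signals of 1199.8, 712 and 746 on the E8.5 arrays, 485, 245 and 269 at E13.5 and 283, 285 and 271 at P90. The P90 arrays were nearly equal, and all later arrays were below E8.5. It fell at P90 (-1.57 ± 0.38, adjusted p = 0.0118) and at E13.5 (-1.39 ± 0.38, adjusted p = 0.0279), the latter lost on removing any E8.5 array or replicate 2 or 3 of E13.5 (adjusted p 0.0571 to 0.101). Both were lost when the array with the widest Actb gap was dropped from every stage (adjusted p = 0.0772 at P90). Parp2, which with Parp1 marks breaks with poly(ADP-ribose), had signals of 773, 750.1 and 705 on the E8.5 arrays, 292, 215 and 323 at E13.5 and 189, 363 and 228 at P90. E8.5 was tight, at 743 ± 34.5 (SD, n = 3), and the 6 later arrays mixed at about the same level. It fell at P90 (-1.51 ± 0.36, adjusted p = 0.0103) and at E13.5 (-1.39 ± 0.36, adjusted p = 0.0206), the latter lost on removing any E8.5 array (adjusted p 0.0572 to 0.0814).

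Parp1, the main break sensor, had signals on its brightest probe set of 2389, 1787 and 1902 on the E8.5 arrays, 1120.3, 1101 and 1816 at E13.5 and 656, 443 and 261 at P90. E13.5 overlapped E8.5 through replicate 3, whereas every P90 array was below every other. Parp1 fell at P90 against E8.5 (-2.20 ± 0.41, adjusted p = 0.00257; 4.6-fold) in all 23 alternatives, and at P90 against E13.5 (-1.59 ± 0.41, adjusted p = 0.0305), while E13.5 against E8.5 gave -0.61 ± 0.41, adjusted p = 0.374. The call against E13.5 was lost on removing replicate 2 or 3 of E8.5, replicate 1 or 3 of E13.5, or replicate 2 or 3 of P90 (adjusted p 0.05004 to 0.146). It was also lost with the replicate number as a block (0.052), with only the arrays of both stages (0.107) and with the mean of its probe sets (0.635). It also depended on the probe set. Another, 1422502_at, gave 539, 414 and 307 on the E8.5 arrays, 215, 5.29 and 45.4 at E13.5 and 161, 30.0 and 44.1 at P90, very low on E13.5 replicates 2 and 3. That probe set fell at E13.5 (-2.66 ± 0.75, adjusted p = 0.0366), a call lost on removing any E8.5 array, replicate 2 or 3 of E13.5 or replicate 3 of P90 (adjusted p 0.0548 to 0.117), and turned the sign at P90 against E13.5 (0.23 ± 0.75, adjusted p = 0.92). At P90 against E8.5 the 4 tested Parp1 probe sets were all lower, from -2.43 to -1.12, with 2 called and 2 not. There the call of 1422502_at (-2.43, adjusted p = 0.0419) was lost on removing 6 of the 9 arrays in turn (adjusted p 0.0659 to 0.15).

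Polb, the gap-filling polymerase of short-patch repair, had its largest change at P90 against E13.5 (-1.05 ± 0.40, adjusted p = 0.15), from signals of 730.2, 501 and 499 on the E8.5 arrays, 968, 534 and 1045 at E13.5 and 383, 529 and 280.1 at P90. All P90 arrays were below E13.5, but both overlapped E8.5, and the change passed without E13.5 replicate 2 (0.043). Lig3, the ligase that seals these nicks and serves mitochondria, had signals of 3820.2, 2710.0 and 4118 on the E8.5 arrays, 3109, 4022 and 4750.2 at E13.5 and 3828, 4014 and 4142 at P90 on its brightest probe set. Its stages overlapped, with a change of 0.19 ± 0.29, adjusted p = 0.694 at P90 against E8.5 (95% interval -0.45 to 0.84). The probe set 1437198_at, in contrast, gave 416, 346 and 298 on the E8.5 arrays, 207, 108 and 196 at E13.5 and 104, 116 and 82.3 at P90, with no overlap between E8.5 and either later stage. It fell at P90 against E8.5 (-1.66 ± 0.34, adjusted p = 0.00565).

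Among damage recognition genes of nucleotide excision repair, Rad23b fell at E13.5 and P90, and Xpc, Cetn2, Ddb1 and Ddb2 were not called. That is 20% of the 5 at each stage, against 7.22% and 12.5% of all genes. Rad23b, the partner that stabilises the lesion sensor Xpc, had signals of 2598, 3257 and 2650.4 on the E8.5 arrays, 1439, 323 and 790.3 at E13.5 and 1571, 604 and 400.2 at P90. E8.5 was the highest on all arrays, and the later arrays spread over several-fold. It fell at E13.5 (-1.95 ± 0.58, adjusted p = 0.0413) and at P90 against E8.5 (-1.93 ± 0.58, adjusted p = 0.0329), with 0.013 between the later stages. The E13.5 call was lost on removing any E8.5 array, replicate 2 or 3 of E13.5 or replicate 2 of P90 (adjusted p 0.0591 to 0.141). The P90 call was lost on removing any E8.5 array, replicate 3 of E13.5 or replicate 2 or 3 of P90 (adjusted p 0.0517 to 0.123). Without the filter on low signals both calls were lost (0.065 and 0.0521). Its 4 probe sets were all lower at E13.5, 3 of them called, and 2 were called at P90. Of the other 2 calls at E13.5, that of 1450903_at was lost on removing 6 of the 9 arrays in turn (adjusted p 0.0756 to 0.16) and that of 1456822_at on removing 7 (adjusted p 0.0673 to 0.13). The P90 call of 1450903_at was lost on removing 4 (adjusted p 0.0621 to 0.0896). Ddb1, the adaptor that with Ddb2 binds ultraviolet lesions, had signals of 3467, 2559.8 and 2165 on the E8.5 arrays, 3180.0, 860.1 and 1762 at E13.5 and 1659, 1051 and 1681 at P90. P90 lay below E8.5, and E13.5 overlapped both. Its change at P90 against E8.5 was -0.90 ± 0.46, adjusted p = 0.191. Xpc itself gave 0.22 ± 0.30, adjusted p = 0.638 there (95% interval -0.42 to 0.87). Cetn2, the third part of the Xpc complex, and Ddb2 had largest changes of 0.17 and 0.37 in size on their brightest probe sets. At P90 against E13.5 their other probe sets gave 0.37 and 0.51 and were not called.

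The 3 tested genes of transcription-coupled recognition, which act where RNA polymerase stalls, were called in 0 comparisons and by the F-test in 0. Of all genes, 16.5% were called from E8.5 to E13.5, 9.48% from E13.5 to P90 and 23.3% from E8.5 to P90. The F-test called 26.3%. With 3 genes, 0 calls cannot be told apart from those shares. At an unadjusted p under 0.05, 1 gene, Ercc8, was lower at P90 against E8.5 (-0.73 ± 0.29, adjusted p = 0.0886). Xab2, which binds Xpa and the coupling factors, had signals of 1344, 1586 and 1838 on the E8.5 arrays, 1394, 1320.2 and 2167 at E13.5 and 1741, 1523 and 1345 at P90. Its stages overlapped on this probe set, with a change of -0.045 ± 0.34, adjusted p = 0.947 at P90 against E8.5 (95% interval -0.78 to 0.69). Its probe set 1436886_x_at fell at E13.5 (-1.17 ± 0.35, adjusted p = 0.0465), a call lost on removing any array but replicate 1 of P90 (adjusted p 0.0639 to 0.133). Ercc6, the remodeller recruited to the stalled polymerase, had a largest change of 0.34 in size.

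TFIIH opens the DNA around a lesion and also starts transcription. Of its subunits and the verifying factor Xpa, 9 of 10 were tested. Gtf2h4 and Cdk7 fell at P90 against E8.5, and 0 were called in the other comparisons (at an unadjusted p under 0.05, 1 was lower in each). The share called lower at P90 against E8.5 was 22.2%, against 12.5% of all genes. From E8.5 to E13.5 and from E13.5 to P90, 16.5% and 9.48% of all genes were called. Gtf2h4, a core subunit that anchors the helicase Ercc3, had signals of 1770.2, 875 and 1006 on the E8.5 arrays, 554, 847 and 605 at E13.5 and 305, 393 and 296 at P90. The stages stepped down with no overlap between P90 and either earlier stage, and the E13.5 arrays were below E8.5. It fell at P90 (-1.77 ± 0.39, adjusted p = 0.00641) in all 23 alternatives, and all 3 tested probe sets fell there. At E13.5 the brightest gave -0.80 ± 0.39, adjusted p = 0.198, but 1448585_at, with 267, 289 and 265 on the E8.5 arrays, 106, 79.7 and 94.6 at E13.5 and 67.8, 66.4 and 61.4 at P90, fell (-1.41 ± 0.26, adjusted p = 0.0045). Cdk7, the kinase of the TFIIH module that phosphorylates RNA polymerase and activates cell-cycle kinases, had signals of 560.5, 651 and 549 on the E8.5 arrays, 389, 52.2 and 145 at E13.5 and 286, 107 and 70.9 at P90. All later arrays lay below E8.5, with E13.5 replicate 2 lowest. It fell at P90 (-2.02 ± 0.61, adjusted p = 0.0335), a call lost on removing any E8.5 array, replicate 3 of E13.5 or replicate 2 or 3 of P90 (adjusted p 0.0538 to 0.13) or without the filter on low signals (0.0563). Its 3 other tested probe sets were not called, at -0.53 to -0.28. At E13.5 Cdk7 gave -1.87 ± 0.61, adjusted p = 0.0602, and passed without E13.5 replicate 1 or P90 replicate 1 (0.0106 and 0.0287).

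Ccnh, the cyclin of Cdk7, had signals of 1392, 1866 and 1876 on the E8.5 arrays, 1006, 697 and 1487 at E13.5 and 829.6, 1093 and 599.9 at P90. P90 lay below E8.5, and the change was -1.04 ± 0.39, adjusted p = 0.0796. Mnat1, which assembles that kinase, gave -1.20 ± 0.46, adjusted p = 0.0852. Both passed without E13.5 replicate 2 (adjusted p = 0.0414 and 0.018), and Mnat1 without E13.5 replicate 1 (0.039). On their brightest probe sets, the helicases Ercc2 and Ercc3, the core subunits Gtf2h1 and Gtf2h3, and Xpa had largest changes of 0.32, 0.59, 0.20, 0.62 and 0.31 in size, and none was called. The other tested Ercc2 probe set gave -0.93 at E13.5 and -0.85 at P90, both against E8.5, and was not called either. No probe set carried Gtf2h2 in the annotation used.

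The incision nucleases were called in 0 comparisons on their brightest probe sets and by the F-test in 0, with 0 at an unadjusted p under 0.05. Of all genes, 16.5%, 9.48% and 23.3% were called from E8.5 to E13.5, E13.5 to P90 and E8.5 to P90. The F-test called 26.3%. With 3 genes, 0 calls cannot be told apart from those shares. Ercc1, the partner that positions the nuclease Ercc4, had signals of 669, 454 and 474 on the E8.5 arrays, 486, 455 and 565 at E13.5 and 457, 367 and 208 at P90. The stages overlapped, and its change at P90 against E8.5 was -0.65 ± 0.38, adjusted p = 0.249 (95% interval -1.49 to 0.18). Its probe set 1417328_at fell there (-1.22 ± 0.38, adjusted p = 0.0441), a call lost on removing replicate 1 or 2 of E8.5, replicate 3 of E13.5 or any P90 array (adjusted p 0.067 to 0.139). Ercc4, and Ercc5, which cuts on the other side of the lesion, had largest changes of 0.38 and 0.32 in size on their brightest probe sets. Over the 3 tested Ercc4 probe sets the change at P90 against E13.5 reached 0.40, with 0 called.

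Split by pathway and without the shared genes, 14 base excision genes and 20 nucleotide excision genes were tested. Of the former, 2 fell from E8.5 to E13.5, 1 from E13.5 to P90 and 6 from E8.5 to P90, or 14.3%, 7.14% and 42.9%, with medians of -0.38, -0.14 and -0.75. Of the latter, 1, 0 and 3 fell in the same order, or 5%, 0% and 15%, with medians of -0.13, -0.16 and -0.33 (for the 0, 1 was lower at an unadjusted p under 0.05). The shares of all genes called lower were 7.22%, 5.94% and 12.5%, so by calls the nucleotide excision genes fell at or near the rate of all genes or below it. For 7 of the 20 (35%, against 23.6% of all genes), every P90 array lay below every E8.5 array. There, 0 were called higher, against 10.9% of all genes. With 20 genes, the call rate does not show that they behaved like all genes. The difference between the pathways was not tested.

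Several probe sets read 20 of the tested members, and for 13 of these genes all probe sets were lower at P90 than at E8.5, for 3 all were higher and for 4 they differed in sign. Tested one by one, 24 of 76 member probe sets fell at P90 against E8.5 (31.6%, against 11.2% of all 24012 probe sets), 13 at E13.5 against E8.5 (17.1% against 6.98%) and 1 at P90 against E13.5 (1.32% against 4.60%). At least 1 probe set fell for 16 genes at P90 and for 10 at E13.5, against E8.5. Genes with more probe sets are counted more readily by that rule. For these counts of genes, the share of all genes by the same rule was not computed. Whether they are unusual is therefore not known. Lig3, Fen1 and Cdk7 spread the most, by 1.85, 2.42 and 1.75 between their probe sets at P90 against E8.5. The brightest probe set of Apex1, Fen1, Cetn2, Xab2 and Gtf2h4 has the suffix _x_at, which Affymetrix gives to sets whose probes can also bind other transcripts, so their values are uncertain to that extent.

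**Figure D4:**
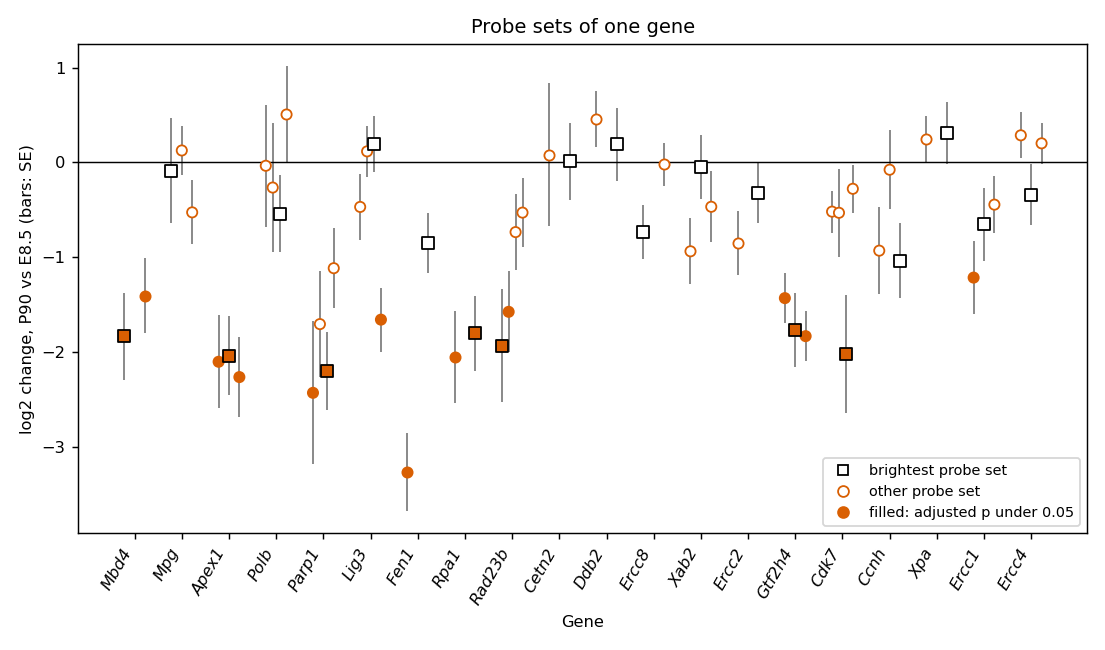
Log2 change at P90 against E8.5 of each tested probe set of the 20 genes with several, with standard errors; squares mark the brightest probe set of a gene, and filled symbols passed an adjusted p under 0.05. The 3 probe sets of Apex1 and of Gtf2h4 lie together below 0, while those of Fen1, Lig3 and Cdk7 spread apart.

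A wider list of 31 other excision repair genes was read beside the members, and 26 were tested. Of these, 9 fell from E8.5 to E13.5, 2 from E13.5 to P90 and 9 from E8.5 to P90. These are 34.6%, 7.69% and 34.6%, against 7.22%, 5.94% and 12.5% of all genes. In each comparison 0 rose (1, 0 and 1 at an unadjusted p under 0.05), against 9.27%, 3.54% and 10.9% of all genes. Of the 14 that are also replication genes, 9, 2 and 8 fell in the same order. At E13.5 against E8.5 these included Rfc5, a clamp-loader subunit (-3.63 ± 0.59, adjusted p = 0.00163), Pole and Pold1, the replicative polymerases (-2.73 ± 0.37, adjusted p = 0.000553 and -2.60 ± 0.40, adjusted p = 0.00113), and Pcna, the sliding clamp (-2.46 ± 0.69, adjusted p = 0.032), whose call was lost on removing any E8.5 array or replicate 2 or 3 of E13.5 (adjusted p 0.0669 to 0.121). At P90 against E8.5 the same 4 fell, Rfc5 by the most (-4.55 ± 0.59, adjusted p = 0.000252) and Pcna with a call lost on removing replicate 2 of E8.5 or replicate 3 of P90 (adjusted p 0.051 to 0.0517). At P90 against E13.5 Pold1 and Pole fell (-1.41 ± 0.40, adjusted p = 0.0471 and -1.34 ± 0.37, adjusted p = 0.0433), and each call was lost on removing any array but replicate 1 of E8.5 (adjusted p 0.0534 to 0.137 and 0.0512 to 0.129) or the arrays with the widest Actb gaps (0.062 and 0.0561). Of the 12 tested genes outside replication, 1 fell at P90 against E8.5 (8.33%, below the 12.5% of all genes). It was Tdp1, which frees topoisomerase-blocked ends (-1.97 ± 0.46, adjusted p = 0.0095), and 0 were called in the other 2 comparisons (at an unadjusted p under 0.05, 1 rose and 1 fell at E13.5, and 0 at P90 against E13.5).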

How the data were processed

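RNA of 9 laser-captured samples, 3 per stage, was measured on Affymetrix arrays; per the labels' protocols, a PicoPure kit extracted the RNA and 400 ng of it went into biotin labelling. The deposited table gives 1 linear intensity per probe set and array. MAS5, GCOS, RMA and GCRMA are listed, with no role or version, in the submitters' processing notes, so which of them made the values is not given in the sources used here. Of 405909 cells, 8048 (1.98%) were empty, and the reason is not stated. The annotation gave 1 gene symbol to 34945 of 45101 probe sets, several to 932 and none to 9160, and 64 were controls; 34741 could be matched to the gene table by Entrez identifier, and 0 symbols changed.

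Tests ran on log2(signal + 16) without further scaling. A probe set entered if its signal passed 26.1 (the 40th percentile) on at least 3 of 9 arrays and each stage had at least 2 values. The brightest probe set by mean log2 signal stood for a gene, which left 24012 probe sets and 13747 of 18193 genes. All 9 arrays were fitted together in limma 3.58.1 (R 4.3.3; lmFit, eBayes with a variance trend, 6 residual degrees of freedom, two-sided), and a gene was called where its p, adjusted by Benjamini-Hochberg over all genes, was under 0.05. The fit was tested on simulated data with independent noise for each value and no shift shared by an array. It does not show how array-wide shifts, as on E13.5 replicate 2, affect the calls. Promoter letters were searched in RefSeq sequences.

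The members, role groups, wider list and cell markers were chosen with earlier results of these data known. Signals on each array are printed for every called member and for the brightest uncalled member of each role (and for Polb, Ung and further probe sets, chosen after their values were seen). Genes of the wider list are named where called, up to 4 per comparison by size. Few arrays limit the precision. Alternatives changed scaling, pseudocount, filter, variance model, probe set, arrays in the fit and a replicate block, and left out each array.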

Additional observations from a re-analysis of the deposited data

How the results depend on the processing

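Over 23 alternatives, which gave 2661 values for single members, 70 calls were lost, 37 were gained and 1 changed sign. That 1 was Parp1 at P90 against E13.5, which was 0.23 (adjusted p = 0.917) when probe sets ending in _x_at, _s_at or _a_at were left out, since another probe set then stood for the gene. Members called at P90 against E13.5, 1 in the main analysis, were 3 with quantile normalization and 0 with the mean of a gene's probe sets, without those suffixes, or with only the arrays of both stages. When the array with the widest Actb gap was dropped from every stage (E8.5 replicate 1, E13.5 replicate 2 and P90 replicate 2), members called at E13.5 against E8.5 went from 6 to 1, F-test members from 12 to 7 and all genes called at P90 against E8.5 from 3209 to 2089; this setting has fewer arrays. With only the arrays of both stages, all genes called at P90 against E13.5 went from 1303 to 834.

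Leaving out 1 array gave 2 to 9 called members at E13.5 against E8.5, 0 to 4 at P90 against E13.5, 10 to 16 at P90 against E8.5 and 6 to 16 by the F-test. Over all genes, the same ranges were 1355 to 2832, 682 to 1802, 2057 to 3928 and 2409 to 4484. At P90 against E8.5, Apex1, Gtf2h4, Lig1, Mbd4, Neil1, Parp1, Parp2, Rpa1 and Rpa2 were called in all 23 alternatives. Centring each array on its median moved the median of all genes there from 0.0045 to -0.15, and 15 members fell, against 13 in the main analysis.

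The labels do not say that the replicate numbers pair the samples. Deviations from stage means correlated at -0.37 to 0.39 between arrays of the same number and at -0.38 to 0.43 between others. With 3 arrays per stage, this check cannot exclude a pairing. With the replicate number as a block, 7 members were called from E8.5 to E13.5 (Cdk7 and Neil3 gained, Rpa1 lost), 0 from E13.5 to P90 (Parp1 lost, adjusted p = 0.052) and 14 from E8.5 to P90, and 13 by the F-test. With 3 arrays per stage and no measure of depth, small changes of dim probe sets could not be resolved.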
